A study of Mus musculus with 6 samples.

Results

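The CC chemokine ligand genes described here are Ccl2, Ccl3, Ccl4, Ccl6, Ccl7, Ccl8, Ccl9, Ccl11, Ccl12 and Ccl24, 10 of the 22556 genes listed for mouse pancreas in TPM, a transcript level corrected for gene length and library size. They were selected on their measured TPM in these same samples, from a family of which 8 other genes were also listed, so their levels and differences are given as a description, and where a fit over all genes took them in, counts of them past a threshold stand for reference and support nothing. Total RNA was sequenced from the pancreas of wild type C57BL/6 mice at 8 weeks of age, in 3 groups of 2 samples. Saline mice had received saline. AP mice had acute pancreatitis induced with caerulein, an analogue of the gut hormone cholecystokinin that overstimulates acinar cells. PolyI:C-pretreated AP mice had received polyI:C, a synthetic double-stranded RNA sensed by Toll-like receptor 3, before caerulein, and values given after polyI:C are those of these mice. In the methods of the study, mice fasted for 8 h and caerulein was injected 10 times at intervals of 1 h. The pancreas was taken at 24 h after induction began. PolyI:C was injected at 10 mg/kg either 1 or 8 h ahead, and the methods do not say which interval the sequenced mice had. The caption of the study's first figure gives 8 h for its caerulein scheme in wild type mice, without naming the sequenced ones. The labels do not say that the 2 samples of a group came from separate animals, so the p-values below measure only the spread between these samples. Each sample is called a mouse below for brevity.

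CC chemokines are small secreted proteins that bind G protein-coupled receptors on leukocytes and guide them into tissue along gradients held on heparan sulfate. Ccl2, Ccl7 and Ccl12 act on Ccr2, the receptor that brings inflammatory monocytes from the bone marrow into injured organs. Ccl3, Ccl6 and Ccl9 act on Ccr1 and, like Ccl4, attract macrophages, neutrophils and T cells, Ccl8 of the mouse is a ligand of Ccr8, and the eotaxins Ccl11 and Ccl24 act on Ccr3 of eosinophils. In pancreatitis, acinar, stellate and endothelial cells and macrophages are known sources of these ligands.

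The tables state no depth. From the spacing of low values, an estimated 3976656 and 3299731 reads were counted in genes in the saline mice, 6933275 and 8857154 in AP, and 8825125 and 10858280 after polyI:C, where values are always given in the order of replicate 1 and replicate 2. With fewer reads in the saline mice, low saline levels were the least precise. Of 13 acinar marker genes, 4 were in the tables and 9 were not analysed here. The 4 summed to 964 and 775 TPM in saline, 235 and 187 TPM in AP, and 478 and 518 TPM after polyI:C, so acinar RNA was present in each sample. Bhlha15 was the most abundant by the mean over the 6 mice, with Rbpjl above it in both AP mice and both polyI:C-pretreated AP mice. By limma Amy2a5, Bhlha15 and Rbpjl were lower in AP than in saline, beside 4.03% of all tested genes. They were higher in polyI:C-pretreated AP than in AP, beside 0.440%. The fourth, Ptf1a, had a fold under 2 in each comparison, with 44.5 and 40.8 TPM in saline, 55.2 and 43.4 TPM in AP, and 67.3 and 98.3 TPM after polyI:C. A bulk sample cannot tell fewer cells of a type from less RNA per cell, and this applies to every level below.

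Together, the 10 ligand genes summed to 138 and 68.4 TPM in saline, 918 and 953 TPM in AP, and 200 and 217 TPM after polyI:C. The sum in the polyI:C-pretreated AP mice lay above that of both saline mice and well below that of both AP mice. The single genes did not share this pattern. Ccl2, Ccl6, Ccl7, Ccl9 and Ccl24 were far lower in both mice with polyI:C than in both mice with AP alone, Ccl8 and Ccl12 were lower by less, and Ccl3, Ccl4 and Ccl11 overlapped between AP alone and AP after polyI:C.

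**Figure D1:**
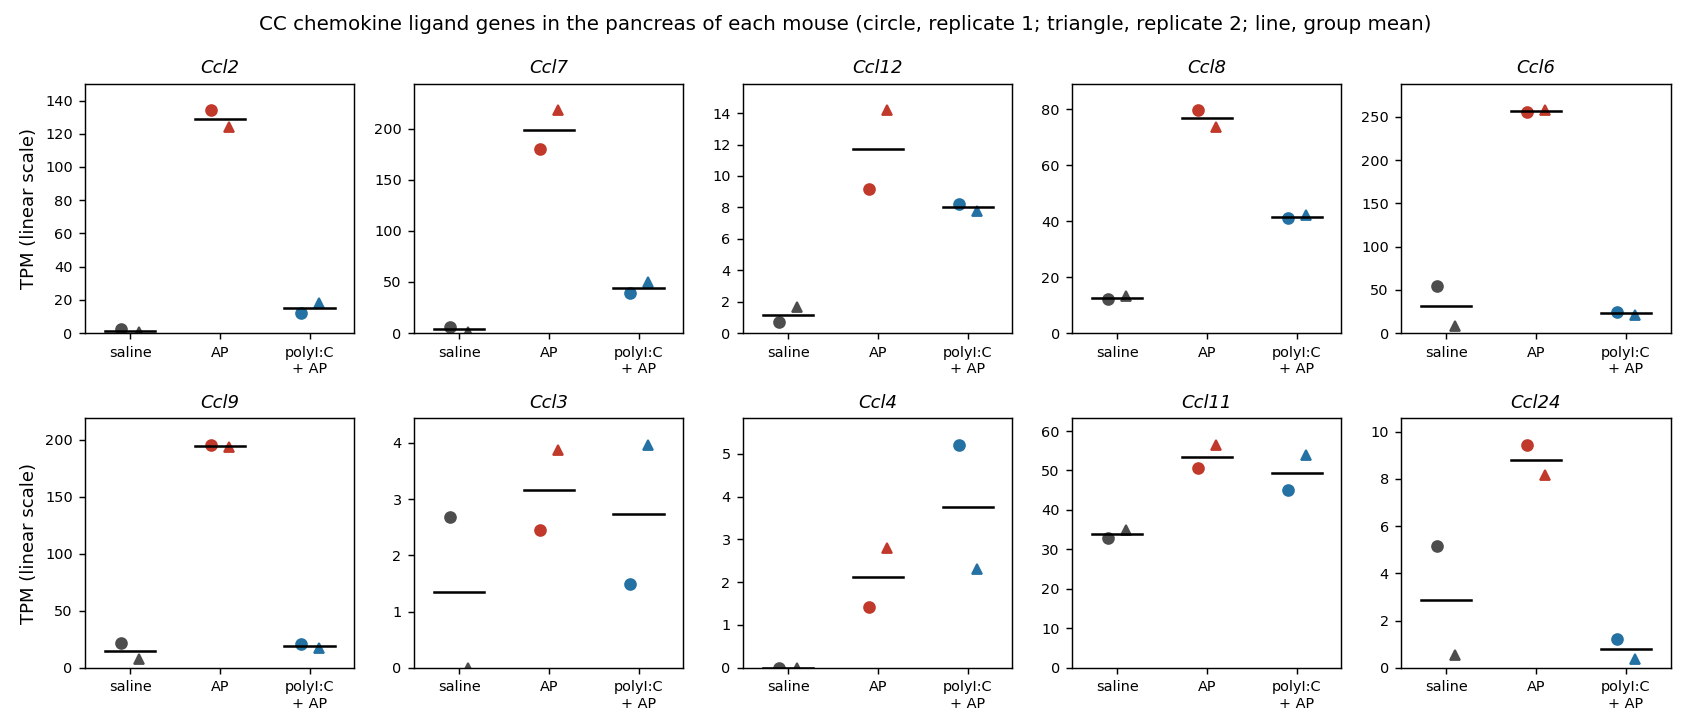
Level of each CC chemokine ligand gene in TPM on a linear axis that starts at 0, for mice given saline, caerulein, or polyI:C and caerulein, where points are single mice and lines are means of 2 mice. The AP mice stand above the saline mice for each gene except Ccl3, and the polyI:C-pretreated AP mice lie near the saline mice for Ccl6 and Ccl9 but between the other groups for Ccl8 and Ccl7.

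Among the Ccr2 ligands, Ccl2 (ENSMUSG00000035385, monocyte chemoattractant protein 1) was measured at 2.15 and 0.441 TPM in saline, 134 and 124 TPM in AP, and 12.0 and 18.3 TPM after polyI:C. The groups did not overlap, and the AP mice were the high ones. Mean Ccl2 was 1.30 ± 1.21 TPM (SD, n = 2) in saline, 129 ± 7.09 TPM in AP and 15.1 ± 4.44 TPM after polyI:C. On the scale of log2(TPM + 0.5), which understates differences of low genes, AP minus saline was 6.36 ± 0.47 (SE) and polyI:C-pretreated AP minus AP was -3.08 ± 0.47. The saline levels rested on few reads, an estimated 3.58 and 0.597, so the size of the first difference was poorly set. A listed gene holds at least a whole read, so these estimates run low.

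Ccl7 (ENSMUSG00000035373), a second monocyte attractant encoded next to Ccl2, stood at 5.99 and 1.05 TPM in saline, 180 and 218 TPM in AP, and 39.1 and 49.6 TPM after polyI:C. As with Ccl2, AP was highest and saline lowest without overlap. Its differences were 5.97 ± 0.60 for AP minus saline, -2.16 ± 0.60 for polyI:C-pretreated AP minus AP, and 3.81 ± 0.60 for polyI:C-pretreated AP minus saline. The saline levels came from an estimated 7.0 and 1.0 reads, and without saline replicate 1 or 2 the first difference was 7.0 or 4.94 and the last 4.84 or 2.78. The ratio of Ccl2 to Ccl7 was 0.360 and 0.420 in saline, 0.745 and 0.569 in AP, and 0.307 and 0.368 after polyI:C. Ccl7 was thus the more abundant of the pair in each of the 6 mice, and Ccl2 came nearest to it in AP.

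Ccl12 (ENSMUSG00000035352), the mouse ligand also named monocyte chemoattractant protein 5, was found at 0.673 and 1.65 TPM in saline, 9.19 and 14.2 TPM in AP, and 8.25 and 7.75 TPM after polyI:C. Both saline mice were low, and the polyI:C-pretreated AP mice lay just under the AP mice, apart from them by less than the AP mice were from each other. AP minus saline was 2.91 ± 0.57, polyI:C-pretreated AP minus AP was -0.49 ± 0.57 (-0.79 or -0.19 without AP replicate 1 or 2), and polyI:C-pretreated AP minus saline was 2.42 ± 0.57. Unlike Ccl2 and Ccl7, with which it shares Ccr2, Ccl12 stayed near its AP level after polyI:C. The saline values came from few reads, an estimated 0.528 and 1.06, and these estimates run low as for Ccl2.

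Ccl8 (ENSMUSG00000009185), the ligand of Ccr8, had 12.1 and 13.2 TPM in saline, 79.7 and 73.9 TPM in AP, and 41.1 and 42.1 TPM after polyI:C. The 3 groups were separate, and the polyI:C-pretreated AP mice lay midway. AP minus saline was 2.56 ± 0.23, polyI:C-pretreated AP minus AP was -0.88 ± 0.23, and polyI:C-pretreated AP minus saline was 1.68 ± 0.23. In TPM, 45.2% of the difference between AP and saline was left with polyI:C.

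Of the ligands of Ccr1, Ccl6 (ENSMUSG00000018927), which macrophages and other myeloid cells make, reached 54.4 and 8.56 TPM in saline, 255 and 257 TPM in AP, and 24.8 and 21.1 TPM after polyI:C. It was the most abundant of the 10 ligands in AP. The polyI:C-pretreated AP mice lay between the saline mice, which differed widely from each other. AP minus saline was 3.53 ± 0.72, and 4.83 or 2.23 without saline replicate 1 or 2, and polyI:C-pretreated AP minus AP was -3.46 ± 0.72. PolyI:C-pretreated AP minus saline was 0.07 ± 0.72 on the log2 scale, although mean Ccl6 was lower after polyI:C (23.0 TPM) than in saline (31.5 TPM). It was 1.37 without saline replicate 1, and its sign turned after median-of-ratios scaling (-0.37), without saline replicate 2 (-1.23) and without polyI:C replicate 1 (-0.045).

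Ccl9 (ENSMUSG00000019122), also known as macrophage inflammatory protein 1 gamma and encoded beside Ccl6, had 21.9 and 7.92 TPM in saline, 196 and 194 TPM in AP, and 21.3 and 17.6 TPM after polyI:C. Here too the polyI:C-pretreated AP mice fell within the range of the saline mice, while both AP mice were far above. AP minus saline was 3.83 ± 0.41, polyI:C-pretreated AP minus AP was -3.30 ± 0.41, and polyI:C-pretreated AP minus saline was 0.53 ± 0.41. The last was 0.09 after median-of-ratios scaling, 1.24 without saline replicate 1 and, with its sign turned, -0.17 without saline replicate 2. The ratio of Ccl6 to Ccl9 was 1.31 and 1.33 in AP, 1.17 and 1.20 after polyI:C and 1.08 in saline replicate 2, but 2.48 in saline replicate 1. Of the AP minus saline difference in TPM, 2.52% of Ccl9 and -3.78% of Ccl6 was left with polyI:C.

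Ccl3 (ENSMUSG00000000982) and Ccl4 (ENSMUSG00000018930), macrophage inflammatory proteins 1 alpha and 1 beta, were the least abundant in AP. Ccl3 had 2.68 and 0 TPM in saline, 2.44 and 3.87 TPM in AP, and 1.49 and 3.96 TPM after polyI:C, and the 3 groups overlapped. Ccl4 was listed at 0 in both saline mice, at 1.42 and 2.80 TPM in AP, and at 5.20 and 2.30 TPM after polyI:C. Ccl4 was therefore the ligand whose mean was highest with polyI:C, although its polyI:C-pretreated AP and AP mice overlapped and their difference was 0.67 ± 0.82, or 0.15 to 1.18 with single mice left out. These levels rested on an estimated 2 to 9 reads of Ccl4 in the caerulein-treated mice, and no fold against saline is given. For Ccl3, AP minus saline was 1.51 ± 1.04, and 2.84 or 0.17 without saline replicate 1 or 2. PolyI:C-pretreated AP minus AP was -0.27 ± 1.04 for Ccl3 and ran from -0.85 to 0.31 when single mice were left out, so single mice set its sign.

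Of the eotaxins, Ccl11 (ENSMUSG00000020676), made largely by fibroblasts and other stromal cells, was measured at 32.9 and 35.0 TPM in saline, 50.6 and 56.4 TPM in AP, and 45.1 and 53.8 TPM after polyI:C. It was the steadiest ligand. AP and polyI:C-pretreated AP overlapped, and both lay above the saline mice. AP minus saline was 0.65 ± 0.18, against a median of 0.45 over all tested genes, and 0.22 after median-of-ratios scaling, where polyI:C-pretreated AP minus saline went from 0.53 to 0.08. PolyI:C-pretreated AP minus AP was -0.12 ± 0.18, and ran from -0.24 to 0.01 with single mice left out.

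Ccl24 (ENSMUSG00000004814, eotaxin 2), a product of macrophages, unlike Ccl11 did not overlap between AP with and without polyI:C, and it was lower after polyI:C. It had 5.18 and 0.530 TPM in saline, 9.43 and 8.16 TPM in AP, and 1.20 and 0.382 TPM after polyI:C. Both AP mice stood above each of the other mice, and 1 saline mouse exceeded both polyI:C-pretreated AP mice. PolyI:C-pretreated AP minus AP was -2.92 ± 0.84, from an estimated 26.1 and 28.6 reads in AP and 4.08 and 1.63 reads after polyI:C. AP minus saline was 1.94 ± 0.84, and 3.17 or 0.71 without saline replicate 1 or 2.

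The saline mice differed from each other for several ligands. Saline replicate 1 was the higher of the pair for Ccl2, Ccl3, Ccl6, Ccl7, Ccl9 and Ccl24, whereas Ccl12, and by little Ccl8 and Ccl11, were higher in saline replicate 2. The 12 marker genes of monocytes and macrophages, all in the tables, summed to 705 and 470 TPM in these mice. Whether cell content set the difference between the saline mice was not tested.

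The make-up of the summed ligand TPM differed between groups. Ccl2 and Ccl7 made up 5.90% and 2.18% of it in the saline mice, 34.2% and 35.9% in AP, and 25.6% and 31.3% after polyI:C. Ccl6 and Ccl9 held 55.3% and 24.1% in saline, 49.1% and 47.4% in AP, and 23.1% and 17.9% after polyI:C. Ccl8 and Ccl11 together held 32.6% and 70.5%, then 14.2% and 13.7%, then 43.2% and 44.2%. PolyI:C-pretreated AP thus kept a share of Ccr2 ligands that was above saline and below AP, had a share of Ccl6 and Ccl9 below that of every other mouse, and had a share of Ccl8 and Ccl11 well above that of AP.

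**Figure D2:**
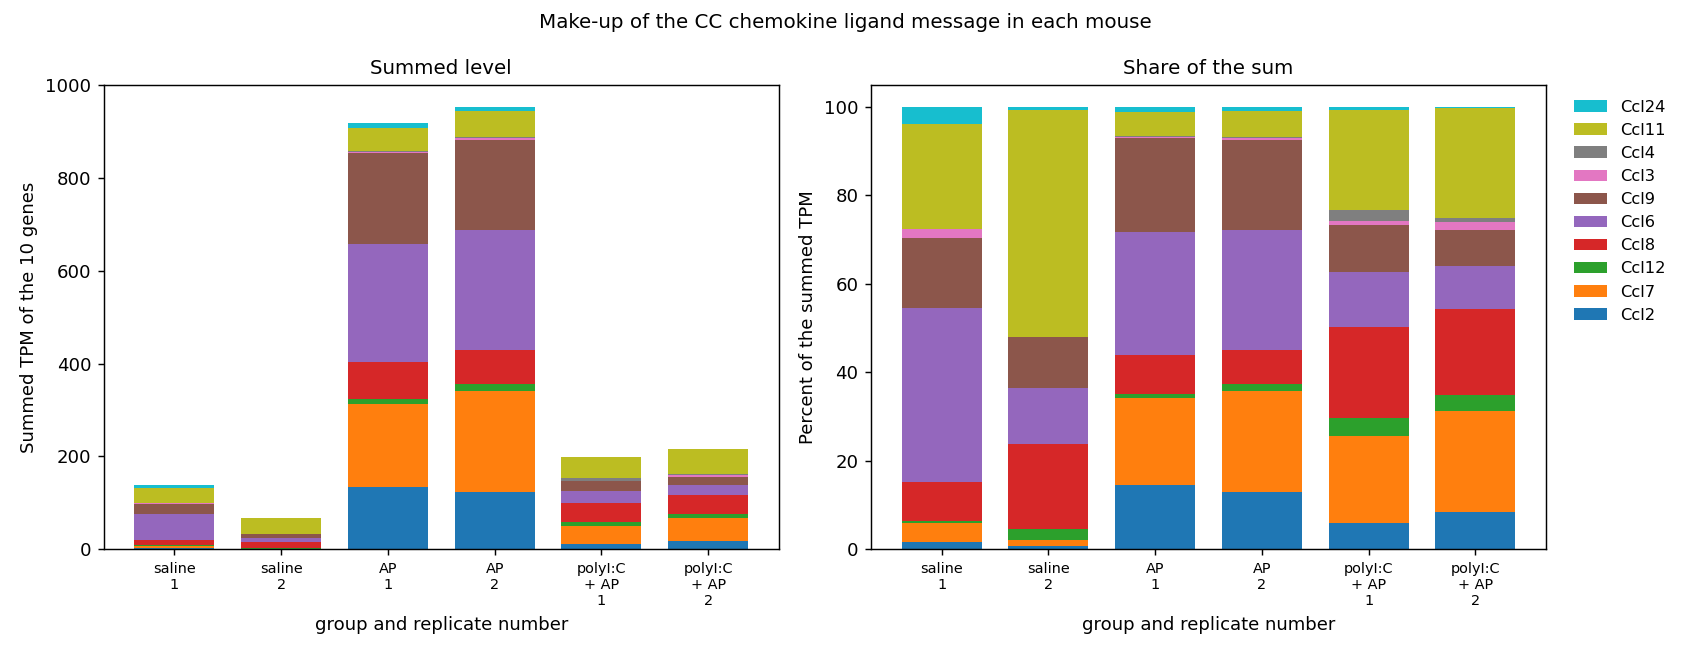
Summed TPM of the 10 CC chemokine ligand genes (left) and the percent of that sum from each gene (right) in each of the 6 mice, with bars that start at 0. Ccl6, Ccl9, Ccl7 and Ccl2 fill most of the AP bars, and Ccl11 and Ccl8 take a larger part in the polyI:C-pretreated AP mice.

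In order of mean level, AP mice ran Ccl6, Ccl7, Ccl9, Ccl2, Ccl8, Ccl11, Ccl12, Ccl24, Ccl3 and Ccl4. In that order the 2 mice overlapped between Ccl7 and Ccl9, between Ccl12 and Ccl24, and between Ccl3 and Ccl4, and the other neighbours did not overlap. With polyI:C the order was Ccl11, Ccl7, Ccl8, Ccl6, Ccl9, Ccl2, Ccl12, Ccl4, Ccl3 and Ccl24. There Ccl11, Ccl7 and Ccl8 overlapped as neighbours, as did Ccl6, Ccl9 and Ccl2, and also Ccl4 and Ccl3. In saline, Ccl11 led, ahead of Ccl6, Ccl9 and Ccl8 with overlap, and Ccl4 was last.

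In limma's fit across 16814 genes, those whose mean TPM was 1 or more, a gene was counted as past the threshold at a fold of at least 2 with p, adjusted after Benjamini and Hochberg, no greater than 0.05. The 10 ligand genes all reached that mean, some of them only through a group in which they were high, and the counts that follow are given for reference, since the genes were chosen on the same values. In AP against saline, 6 ligands were past it upwards (Ccl2, Ccl6, Ccl7, Ccl8, Ccl9 and Ccl12) beside 18.2% of all tested genes, and 0 downwards beside 4.03%. In polyI:C-pretreated AP against AP, 2 were past it downwards (Ccl2 and Ccl9) beside 0.404% of all genes, and 0 upwards beside 0.440%. Both of these calls were lost when any one AP or polyI:C-pretreated AP mouse was left out. Over all alternative fits, the differences ran from -3.37 to -2.79 for Ccl2 and from -3.43 to -3.16 for Ccl9. In polyI:C-pretreated AP against saline, 5 were past it upwards (Ccl2, Ccl4, Ccl7, Ccl8 and Ccl12) beside 16.9%, and 0 downwards beside 2.97%. With single mice left out, 4 to 7 ligands were past it upwards in AP against saline, where Ccl6 lost its call without any one mouse of the AP or polyI:C-pretreated AP groups and Ccl12 without AP replicate 2. For polyI:C-pretreated AP against saline, Ccl8 and 1 other (Ccl2 or Ccl4) were left without polyI:C replicate 1 or 2.

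Both AP mice exceeded both saline mice for 9 ligands, beside 52.6% of all tested genes, and the reverse was seen for 0 ligands beside 16.4%. Both polyI:C-pretreated AP mice were under both AP mice for 7 ligands beside 22.1% of genes, and above them for 0 beside 27.7%. Against saline, both polyI:C-pretreated AP mice were above for 6 ligands beside 54.4% of genes, and below for 0 beside 14.0%. Median log2 differences of the ligands were 2.73, -1.52 and 1.46 in the 3 comparisons, and those of all tested genes were 0.45, 0.04 and 0.48. After median-of-ratios scaling, which sets the typical gene equal between mice, the medians of all genes became 0.06, 0.02 and 0.06, so about 0.4 of each difference against saline was shared with the typical gene.

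The 2 comparisons that involve polyI:C, and the 2 that involve saline, share mice, so their values are set side by side only. All tested genes past the threshold numbered 3053 higher and 677 lower in AP against saline, 81.8% of them higher, and 1566 and 1220 after median-of-ratios scaling, 56.2% higher. They numbered 2838 higher and 500 lower in polyI:C-pretreated AP against saline, 85.0% higher, with 57.4% higher after that scaling, and 74 higher and 68 lower in polyI:C-pretreated AP against AP. Leaving out either AP mouse or polyI:C replicate 2 left 0 genes past the threshold in the latter comparison with limma, and 349 higher and 387 lower, 388 and 299, and 289 and 370 at an unadjusted p of at most 0.05 and the same fold. Without polyI:C replicate 1 it had 41 higher and 1 lower with limma, 97.6% higher where the fit of all 6 mice had 52.1%, and 642 and 447 at the unadjusted p. An exact two-sided permutation test of 2 against 2 mice cannot go below p = 0.333.

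The ligand genes share a place in the genome. In the GRCm38 build, 9 of the 10 lie on chromosome 11, as 2 clusters separated by 1456119 bases between Ccl8 and Ccl9. The upstream cluster, 82035571 to 82116799, holds Ccl2, Ccl7, Ccl11, Ccl12 and Ccl8 in that order, all on the plus strand. The downstream cluster, 83572919 to 83664683, holds Ccl9, Ccl6 and Ccl3 on the minus strand and Ccl4 on the plus strand. Ccl24 lies alone on chromosome 5, 135569937 to 135573049, minus strand.

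Neighbours within a cluster had like differences only in part. In the upstream cluster, Ccl2 and Ccl7 at its start, 8258 bases apart, were 6.36 and 5.97 higher in AP than in saline. The next gene, Ccl11, 10297 bases further, was 0.65 higher, and Ccl12 and Ccl8 at the far end were 2.91 and 2.56 higher. In the downstream cluster, Ccl9 and Ccl6, 9245 bases apart, had differences of -3.30 and -3.46 for polyI:C-pretreated AP minus AP. Those of Ccl3 and Ccl4, across a gap of 54756 bases from Ccl6, were -0.27 and 0.67.

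**Figure D3:**
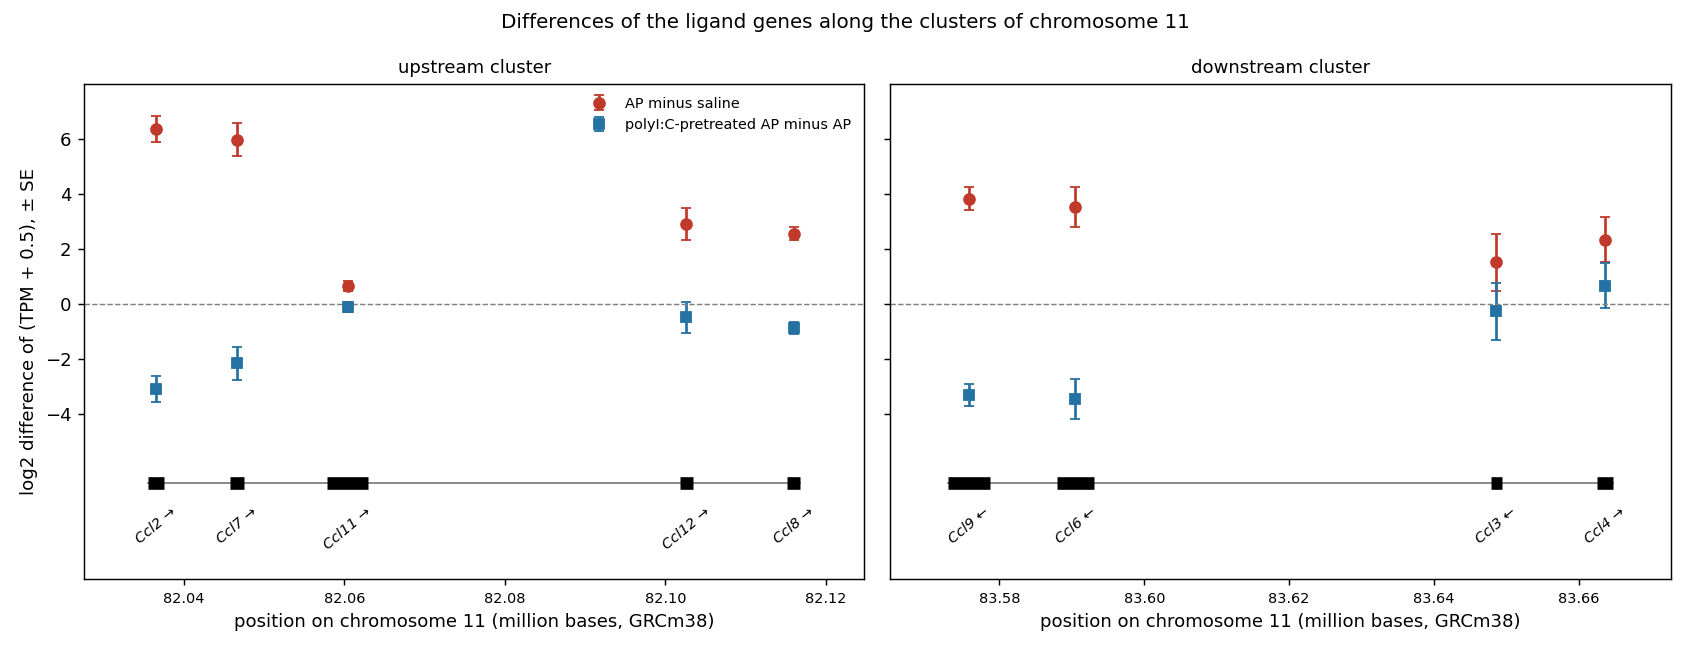
Log2 differences of (TPM + 0.5) with their SE (y axis) at the position of each gene on chromosome 11 in Mb of GRCm38 (x axis), with genes drawn to scale as black boxes and arrows for strand. Adjacent genes at the start of each cluster (Ccl2 and Ccl7, Ccl9 and Ccl6) have the largest differences in both directions, and the AP minus saline value of Ccl4, at 0 in both saline mice, depends on the 0.5 added.

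Coding sequences of these genes were compared with each other because reads of alike genes can be misassigned. Of 45 pairs, the most similar were Ccl3 and Ccl4 with 66.7% identical bases, Ccl7 and Ccl11 with 66.3%, Ccl6 and Ccl9 with 64.8%, and Ccl8 and Ccl12 with 64.4%. No transcript of any of the 10 shared a stretch of 100 bases with another gene. No exon of the 10 overlapped an exon of another annotated gene. The pair Ccl7 and Ccl11, second in identity, differed in level in the saline and AP mice but overlapped after polyI:C. Whether reads were misassigned between them was not tested.

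RefSeq's promoter table for GRCm38.p6 held 5 of the 10 genes (Ccl3, Ccl6, Ccl8, Ccl9 and Ccl12). The 250 bases before the start of 4 of them are printed because Ccl6 and Ccl9 are adjacent genes that were both low with polyI:C, while Ccl8 and Ccl12 stayed well above saline. They were searched on both strands for an NF-kB consensus, AP-1 (TGANTCA), C/EBP (TTGCNNAA), an interferon-stimulated response element (GAAANNGAAA), a STAT motif (TTCNNNGAA) and an extended ETS core (GAGGAA), and matches are in capitals. Sequences run 5′ to 3′ on the gene's strand, which is minus for chr11:83578637-83578886 (Ccl9) and chr11:83593088-83593337 (Ccl6), and plus for chr11:82114935-82115184 (Ccl8) and chr11:82101595-82101844 (Ccl12).
Ccl9: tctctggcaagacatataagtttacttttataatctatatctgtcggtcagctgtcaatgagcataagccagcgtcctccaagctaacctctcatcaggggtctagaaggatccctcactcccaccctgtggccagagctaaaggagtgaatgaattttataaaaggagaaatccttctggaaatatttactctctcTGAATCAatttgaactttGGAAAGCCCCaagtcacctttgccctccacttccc
Ccl6: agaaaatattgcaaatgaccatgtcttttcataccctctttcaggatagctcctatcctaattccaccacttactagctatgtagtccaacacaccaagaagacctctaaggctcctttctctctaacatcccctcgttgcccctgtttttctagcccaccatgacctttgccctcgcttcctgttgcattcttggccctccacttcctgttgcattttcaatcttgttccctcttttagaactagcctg
Ccl8: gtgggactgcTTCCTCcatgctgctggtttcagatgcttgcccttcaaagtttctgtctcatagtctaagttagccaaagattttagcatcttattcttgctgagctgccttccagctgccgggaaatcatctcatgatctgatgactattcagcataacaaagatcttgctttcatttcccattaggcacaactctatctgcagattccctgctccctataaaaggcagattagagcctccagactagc
Ccl12: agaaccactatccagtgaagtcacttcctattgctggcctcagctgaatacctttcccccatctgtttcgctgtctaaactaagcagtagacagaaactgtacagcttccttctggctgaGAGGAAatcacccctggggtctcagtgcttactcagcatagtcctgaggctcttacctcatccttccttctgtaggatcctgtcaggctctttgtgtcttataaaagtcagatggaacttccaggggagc
Ccl9 had an NF-kB match from base 35 to base 26 before its start, found on the reverse strand, and an AP-1 match from base 53 to base 47. The window of Ccl6 held none of the 6 motifs in these letters, and other forms of them, such as a shorter ETS core, were not searched. Ccl8 had an extended ETS core at bases 240 to 235 and Ccl12 had one at bases 130 to 125, and none of the 4 windows held the C/EBP, interferon or STAT letters. In the window of Ccl3, which is not printed, the only match was an extended ETS core at bases 33 to 28. The RefSeq start of Ccl3 did not match its transcripts in GENCODE, so these distances are from the RefSeq start only. Among all 32851 promoters of the table, 3.90% held the NF-kB consensus, 6.75% AP-1, 9.56% C/EBP, 2.98% the interferon element, 7.02% the STAT motif and 23.3% the extended ETS core. A match describes letters in the window and not a bound site.

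A further set of sequences bears on Ccl2. The primer pair that the study lists for Ccl2 in its quantitative PCR has these sequences, printed because they can be placed on the transcripts of 2 of the ligands.
forward: attctgtgaccatcccctcat
reverse: tgtatgtgcctctgaacccac
Both matched Ccl24 transcripts exactly and no other gene, giving a predicted product of 187 bases from exon 2 to exon 3 (chromosome 5, 135570895 to 135572693, minus strand). In Ccl2 transcripts the nearest sites had 10 and 7 mismatches of 21 bases each. In the sequencing data Ccl24 stood at 8.79 ± 0.901 TPM in AP, where Ccl2 stood at 129 ± 7.09 TPM, and both genes were lower in each polyI:C-pretreated AP mouse than in each AP mouse. PCR values were not analysed here.

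Patterns across the 6 mice were compared by Pearson's r of log2(TPM + 0.5), given as a description with no p, since all genes share the same libraries. Among the ligands themselves, r was highest for Ccl2 with Ccl7 (0.987), Ccl6 with Ccl9 (0.976) and Ccl2 with Ccl8 (0.966), and lowest for Ccl4 with Ccl24 (0.014). Ccl24 followed Ccl6 (0.934) and not the other eotaxin, Ccl11 (0.185). Outside the family, among 9407 genes averaging 10 TPM or more, the closest 2 were Tyrobp (0.996) and Adgre1 (0.991) for Ccl6, Gm7600 (0.997) and Sirpa (0.995) for Ccl9, and Mpeg1 (0.999) and Aacs (0.998) for Ccl7. Tyrobp, Adgre1, Sirpa and Mpeg1 are expressed by macrophages. They were singled out among the genes of like pattern of all 10 ligands, so no cell source is read from them.

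The closest genes of the others were Xpo6 (0.996) and Ptbp2 (0.996) for Ccl2, Mul1 (0.999) and Psd4 (0.999) for Ccl8, Cr1l (1.00) and Adprhl2 (1.00) for Ccl12, and Tfdp1 (0.996) and Tusc1 (0.994) for Ccl11. For the low ligands they were Eogt (0.991) and Lipt2 (0.987) for Ccl3, Cwc22 (0.998) and Camsap2 (0.997) for Ccl4, and Abl2 (0.976) and Tbc1d20 (0.972) for Ccl24. With 6 mice and so many candidates, high r values arise for each of the 10 genes.

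Of 14 other CC ligand genes in the list, 8 were in the tables, and Ccl1, Ccl21a, Ccl21b, Ccl21c, Ccl26 and Ccl27b were not analysed here. Ccl19, Ccl20 and Ccl22 had a mean under 1 TPM and were not tested, leaving 5. By limma, 0 of the 5 passed the threshold in AP against saline, beside 18.2% of all tested genes higher and 4.03% lower. In polyI:C-pretreated AP against AP 0 passed as well, beside 0.440% and 0.404%. With polyI:C against saline, 1, Ccl28, was higher (log2 difference 2.65 ± 0.74, adjusted p = 0.029). That share is near the 16.9% of all tested genes, and 0 were lower beside 2.97%. At an unadjusted p of at most 0.05 and the same fold, 1 of the 5 was higher in each comparison and 0 lower. Of all 16814 tested genes, 3406, 327 and 3223 were then higher and 806, 401 and 614 lower. Median differences of the 5 genes were 0.35, 0.20 and 1.53, and the last of these is that of Ccl17.

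Ccl28, a mucosal epithelial ligand of Ccr10 and Ccr3, had 0 and 2.03 TPM in saline, 1.38 and 0.595 TPM in AP, and 5.82 and 7.39 TPM after polyI:C. Its call was lost in 11 of the 14 alternative settings, among them each fit that left out a mouse other than saline replicate 2. Ccl17, a ligand of Ccr4 on T cells, was listed at 0 in both saline mice, at 2.73 and 2.88 TPM in AP, and at 0.742 and 1.18 TPM after polyI:C. Its adjusted p from limma was 0.064 for AP against saline. The AP level alone took Ccl17 past the filter, so this p-value and its part in the counts above stand for reference only. Ccl5, which T cells and macrophages secrete, had 1.14 and 0.702 TPM in saline, 3.90 and 2.47 TPM in AP, and 2.23 and 5.81 TPM after polyI:C. Ccl25 had 8.27, 9.66, 7.81, 8.07, 8.28 and 22.7 TPM and Ccl27a 0.924, 2.79, 1.78, 2.22, 1.45 and 2.27 TPM across the 6 mice, and exons of these 2 genes overlap Elavl1 and Il11ra1. Ccl5 and Ccl17 thus stayed far under Ccl2 and Ccl7 in AP.

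Of 10 CC receptor genes taken for comparison, 8 were in the tables and 5 were tested, and Ccr8 and Ccr1l1 were not analysed here. Ccr3 and Ccr7 reached a mean of 1 TPM only through AP, and Ccr9 only through saline. The counts and medians that follow therefore stand for reference and support nothing, and the medians of 2.64 and -2.75 are those of Ccr3. By limma, 3 of the 5 rose in AP against saline (Ccr1, Ccr2 and Ccr3) beside 18.2% of all tested genes, with a median difference of 2.64. In polyI:C-pretreated AP against AP, 2 of the 5 fell (Ccr1 and Ccr2) beside 0.404%, with a median of -2.75. Against saline, 0 of the 5 passed with polyI:C in either direction, beside 16.9% higher and 2.97% lower, and the median was -0.21. At an unadjusted p of at most 0.05 with that fold, 4 rose in AP, 4 fell after polyI:C against AP, and the directions at 0 held 0 here too.

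Ccr1, the receptor of Ccl3, Ccl6 and Ccl9, had 3.14 and 1.49 TPM in saline, 47.6 and 42.1 TPM in AP, and 2.69 and 2.78 TPM after polyI:C, with log2 differences of 4.07 ± 0.29 (adjusted p = 0.00017) and -3.80 ± 0.29 (adjusted p = 0.0048). Ccr2, the receptor of Ccl2, Ccl7 and Ccl12, had 3.76 and 2.40 TPM, 36.2 and 34.4 TPM, and 2.17 and 1.92 TPM, with 3.35 ± 0.20 (adjusted p = 9.8e-05) and -3.82 ± 0.20 (adjusted p = 0.0027). Both receptors were back within or under the saline range after polyI:C. Their ligands did not all follow them, since Ccl2, Ccl7 and Ccl12 stayed above both saline mice while Ccr2 did not. The 2 falls were no longer past the threshold when any single mouse of the AP or polyI:C-pretreated AP groups was left out, with differences from -3.89 to -3.72 for Ccr1 and from -3.89 to -3.74 for Ccr2.

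Ccr3, the eotaxin receptor, had 0 and 0.515 TPM in saline, 4.86 and 3.17 TPM in AP, and 0 and 0.371 TPM after polyI:C, with log2 differences by limma of 2.64 ± 0.59 in AP (adjusted p = 0.012) and -2.75 ± 0.59 for polyI:C-pretreated AP minus AP (adjusted p = 0.092). Its AP level alone took Ccr3 past the filter, so these p-values stand for reference only. The rise of Ccr3 in AP lost its call without saline replicate 1 (2.13) or without either AP mouse (2.36 and 2.91).

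**Figure D4:**
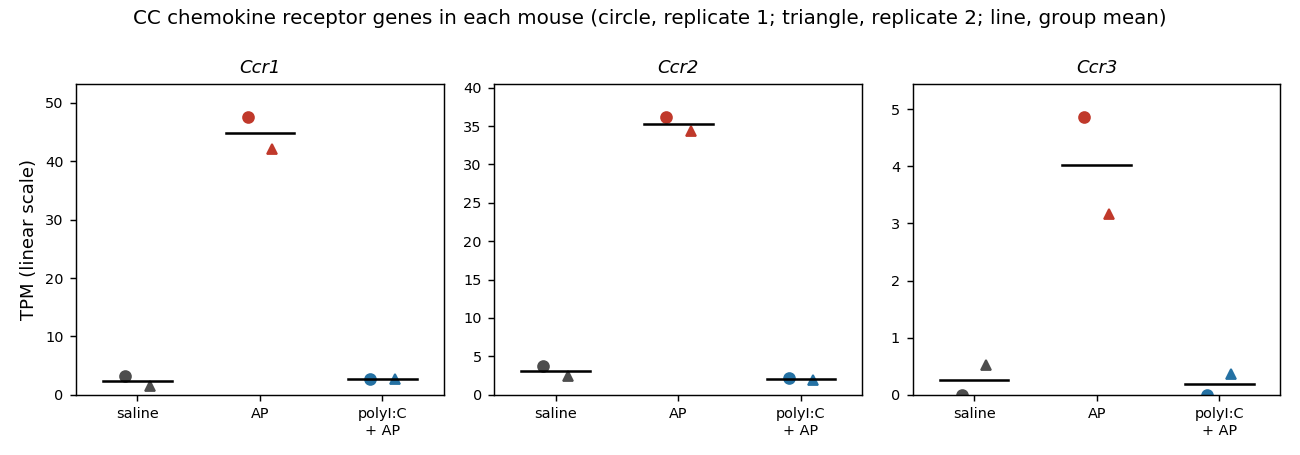
Level of 3 CC chemokine receptor genes in TPM on a linear axis that starts at 0, for mice given saline, caerulein, or polyI:C and caerulein, with single mice as points and means of 2 mice as lines. The 3 genes are high in both AP mice, and the polyI:C-pretreated AP mice lie near the saline mice.

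The remaining receptor genes did not pass in any of the 3 comparisons. Ccr7, which draws dendritic and T cells to lymph nodes, had 0 and 0.426 TPM in saline, 1.42 and 5.05 TPM in AP, and 0.193 and 0 TPM after polyI:C. The higher of the AP mice, replicate 2, also had more RNA of B cell markers (44.1 TPM summed over 5 genes, against 6.13 TPM in AP replicate 1) and of lymph node markers (36.8 against 4.94 TPM over 5 genes), and a part of these in Ccr7 was not tested. Ccr9 was at 0.557 to 1.78 TPM, and Ccr4, Ccr6 and Ccr10 had means under 1 TPM. Of 5 atypical and related receptors, which bind chemokines without coupling to G proteins, 4 were tested and 0 passed by limma, nor did any at an unadjusted p of at most 0.05 with that fold, with medians of 0.30, -0.14 and 0.38. Of all tested genes, 18.2% were higher and 4.03% lower in AP against saline, and 16.9% and 2.97% in polyI:C-pretreated AP against saline. In polyI:C-pretreated AP against AP the shares were 0.440% and 0.404%. For 4 genes, a count of 0 is near each of these shares. Ackr3 ranged from 7.28 to 13.8 TPM, Ccrl2 from 7.83 to 14.8 TPM, Ackr4 from 2.06 to 4.28 TPM and Ackr1 from 0 to 4.98 TPM, and Ackr2 was under 1.1 TPM in each mouse. Exons of Ccr9, Ackr1 and Ackr4 overlap those of other genes.

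Genes that act behind the receptors carry the signal from G protein to cell movement. Of 24 tested genes of chemokine receptor signalling, 12 rose and 0 fell in AP against saline (median 1.03), 0 rose and 2 fell in polyI:C-pretreated AP against AP (median -0.41), and 5 were higher and 0 lower with polyI:C than in saline (median 0.40). Of all tested genes, 18.2% rose in the first, 0.404% fell in the next and 16.9% were higher in the last, to which 5 of 24 is near. At an unadjusted p of at most 0.05 and the same fold, the directions at 0 held 0 genes and the falls with polyI:C 6. The Src family kinase Fgr (2.95 ± 0.39, adjusted p = 0.0015), the actin regulator Was (2.06 ± 0.41, adjusted p = 0.0078) and the G protein subunit Gnai2 (1.94 ± 0.11, adjusted p = 8.5e-05) had the largest rises in AP by limma. Fgr reached a mean of 1 TPM only through AP, so its calls and its part in these counts stand for reference. The 2 that fell with polyI:C were Fgr (-2.53 ± 0.39, adjusted p = 0.044) and Dock2 (-1.92 ± 0.21, adjusted p = 0.019), a Rac activator needed for leukocyte migration, and both calls were lost in fits that left out any mouse. Against saline, Gnai2 (1.55 ± 0.11, adjusted p = 0.00018), a further G protein subunit, Gnb1 (1.53 ± 0.17, adjusted p = 0.00081), and the cell polarity regulator Cdc42 (1.35 ± 0.09, adjusted p = 0.00013) were the highest with polyI:C.

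Of 15 tested genes for chemokine presentation and cleavage, 3 rose in AP against saline (Sdc1, Sdc4 and Ext1), a share near the 18.2% of all tested genes, 0 were past the threshold in either direction in polyI:C-pretreated AP against AP, and 3 were higher with polyI:C than in saline (Sdc1, Sdc2 and Ext1), near the 16.9% of all, with 0 lower. The directions at 0 held 0 genes at the unadjusted p as well. Medians were 0.52, -0.02 and 0.45. Sdc1, a heparan sulfate proteoglycan that can hold chemokines at the cell surface, had 23.3 and 21.6 TPM in saline, 271 and 244 TPM in AP, and 244 and 231 TPM after polyI:C, a rise of 3.49 ± 0.10 in AP by limma (adjusted p = 1.3e-05). Unlike Ccl2, Ccl6 and Ccl9, Sdc1 stayed near its AP level after polyI:C (3.37 ± 0.10 above saline, adjusted p = 1.7e-05). After median-of-ratios scaling, Sdc4 (0.71 in AP), Ext1 (0.61) and 5 of the 12 risen signalling genes were under a fold of 2, as were Sdc2 (0.65), Ext1 (0.73) and the signalling genes Cdc42 (0.89), Vav1 (0.78) and Plcb3 (0.74) with polyI:C against saline. By limma on the scaled values, Gpc1 (-1.20), Gpc4 (-1.12) and the signalling gene Arrb1 (-1.02) were then past the threshold downwards in AP, and Gpc1 (-1.22) with polyI:C against saline, so that Sdc1 alone of the presentation list was past it upwards in either.

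Markers of the cells that make or follow these ligands were set beside them. The 12 monocyte and macrophage genes summed to 705 and 470 TPM in saline, 2684 and 3104 TPM in AP, and 773 and 636 TPM after polyI:C. By limma, 8 of the 12 rose in AP beside 18.2% of all genes, and 5 fell with polyI:C against AP beside 0.404% (Csf1r, Lyz2, Itgam, Fcgr1 and Cx3cr1). With polyI:C against saline, 4 were higher (Cd68, Fcgr1, Cd14 and C1qa) beside 16.9%, and 3 were lower (Csf1r, Lyz2 and Cx3cr1) beside 2.97%. The most abundant by the mean over the 6 mice was Lyz2, although Cd14 exceeded it after polyI:C, and without Lyz2 the sums were 260 and 163 TPM, 793 and 987 TPM, and 569 and 517 TPM. None of the 12 was at 0 in any mouse. Like Ccl6 and Ccl9, Lyz2 was high in both AP mice (1891 and 2118 TPM) and low after polyI:C (203 and 119 TPM). Unlike these 2 ligands, Lyz2 after polyI:C lay under both saline mice (444 and 307 TPM). Cd14 stayed at 216 and 209 TPM after polyI:C against 218 and 222 TPM in AP. The part of macrophage content in the ligand levels was not tested.

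Neutrophil markers, of which 8 of 11 were in the tables, summed to 16.6 and 5.15 TPM in saline, 71.0 and 63.1 TPM in AP, and 45.2 and 21.4 TPM after polyI:C. By limma 3 of the 6 tested rose in AP (S100a9, Retnlg and Mmp8) beside 18.2% of all tested genes. Mmp8 reached a mean of 1 TPM only through AP, so its call stands for reference. Retnlg led by the mean over the 6 mice but was under S100a9 in saline replicate 1 and in both mice after polyI:C, and without Retnlg the sums were 14.3 and 2.38, 35.6 and 35.1, and 37.7 and 19.9 TPM. Eosinophil markers, 5 of 7 in the tables, summed to 6.63 and 0 TPM, 22.9 and 15.0 TPM, and 2.12 and 4.96 TPM, with Ear2 the most abundant. Siglecf, a defining eosinophil marker, was at 0 to 0.741 TPM in each mouse. Eosinophil marker RNA was thus low beside Ccl11 at 32.9 to 56.4 TPM, and, as with Ccl24, both AP mice held more of it than any other mouse, but not without Ear2 (2.82 and 0, 2.11 and 3.71, and 0 and 1.58 TPM). Fibroblast and stellate markers, 7 of 7, summed to 851 and 630 TPM, 797 and 969 TPM, and 829 and 702 TPM, with Dcn the most abundant. Without Dcn, which in each AP mouse was under either saline mouse, the sums were 181 and 90.4, 489 and 544, and 326 and 336 TPM. By limma 4 of the 7 rose in AP beside 18.2% of all (Col1a1, Col1a2, Col3a1 and Lum). The part of these cells in the levels of Ccl11, Ccl24 and the other ligands was not tested.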

How the data were processed

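RNA-seq of 6 pancreas samples, called mice here (saline, AP and polyI:C-pretreated AP, 2 each), was analysed as TPM tables deposited by the authors. By the study's methods and the submitters' processing notes, the authors used Trimmomatic for trimming, STAR for mapping to mm10, HTSeq for counting and DESeq2 for comparing groups, and how TPM was made from the counts was not given in the sources used here. The labels name both a ribosomal RNA depletion kit and an mRNA kit for the libraries. Since TPM is not a count, no count test was run.

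Groups and replicate numbers came from the labels. Identifiers were matched to GENCODE M21 (GRCm38), where 22490 of 22556 had a symbol. The 3 comparisons were fitted with limma 3.58.1 in R 4.3.3 on log2(TPM + 0.5), with 1 coefficient per group over all 6 mice, for 16814 genes whose mean was 1 TPM or more, and a prior variance following log2 of mean TPM times exon length. A gene passed when its p, adjusted after Benjamini and Hochberg over all tested genes, was no greater than 0.05 and its fold at least 2. The procedure was tested on simulated data.

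Depth was estimated from the spacing of TPM times exon length among low values. Of values under 20 reads, 50.5% to 61.8% lay within 0.1 of a whole read, against 19.0% to 20.6% with exon lengths shuffled, so the reads given for single genes are estimates. For Ccl2, Ccl12 and Ccl24, estimates under a whole read at a TPM above 0 are too low. Exon lengths taken here may differ from those behind the TPM.

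The members and the gene lists were chosen with earlier results of these data known. Named were each of the 10 ligands with its values in each mouse, the other CC ligand, CC receptor and atypical receptor genes in the tables, up to 3 genes past the threshold per comparison and direction with the largest differences from the signalling and presentation lists, the most abundant gene of each marker list by its mean over the 6 mice, and for each ligand 2 genes of like pattern. Further genes of the marker lists, such as Cd14 and Siglecf, and those whose call a scaling ended or made were named after their values were seen.

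Alternatives were pseudocounts of 0.1 and 1, no filter and a mean of at least 5 TPM, median-of-ratios scaling, 2 other prior variances, only the 4 mice compared, a block for replicate number, and fits without each mouse. Promoters were RefSeq's for GRCm38.p6. Primers and transcripts were compared with Biopython 1.88 and Python 3.11.15. Samples other than these 6, and PCR values, were not used here, and a few genes of the lists are not reported here.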

Additional observations from a re-analysis of the deposited data

How the results depend on the processing

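Under median-of-ratios scaling, limma gave 1566 genes higher and 1220 lower in AP against saline and 1325 and 982 in polyI:C-pretreated AP against saline, and of the other listed CC ligand, receptor and pathway genes 11 higher and 3 lower and then 3 higher and 1 lower (18 and 0, and 9 and 0, without that scaling). By its construction the scaling sets the typical gene equal between mice. It put the mean summed ligand TPM at 843.2 in AP and 184.7 after polyI:C, and turned Ccr1 after polyI:C against saline from 0.27 to -0.11.

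In polyI:C-pretreated AP against AP (74 genes higher, 68 lower, 2 of the ligands lower, 4 of the other listed genes lower), no filter gave 44 higher and 0 ligands, and a pseudocount of 0.1 gave 1 ligand. A prior variance with no trend gave 22 higher, 19 lower, 0 ligands and 1 other listed gene, and one following the mean gave 14, 14, 0 and 2. With only the 4 mice compared the counts were 32, 37, 4 and 2. Where limma called 0 ligands lower in these fits, 5 were lower at an unadjusted p of at most 0.05. The cause was not tested.

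Without each mouse in turn, where a lone mouse is taken to vary like the others, AP against saline had 1947 to 3112 genes higher, 438 to 645 lower, 4 to 7 ligands higher and 11 to 22 of the other listed genes higher, lowest without AP replicate 2. PolyI:C-pretreated AP against AP had 0 to 41 genes higher, 0 to 37 lower (41 and 1 without polyI:C replicate 1), 0 to 4 ligands lower and 0 to 2 other listed genes lower, with limma at 0 in both directions without either AP mouse or polyI:C replicate 2, where 289 to 388 genes were higher and 299 to 387 lower at the unadjusted p, 2 to 3 ligands among the lower. PolyI:C-pretreated AP against saline had 2 to 6 ligands higher, 0 to 2 lower (Ccl6 and Ccl24 without saline replicate 2) and 5 to 10 other listed genes higher. Fewer mice were fitted in each. Differences ran from -0.82 to 1.52 for Ccl28 in AP against saline, and after polyI:C against saline from -0.17 to 0.70 for Ccr1 and from -0.62 to 0.40 for Ccr3.

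With the replicate number as a replicate block, 2987 genes were higher and 659 lower in AP against saline, 62 and 62 for polyI:C-pretreated AP against AP with 1 ligand lower (Ccl9), and 2799 and 488 in polyI:C-pretreated AP against saline. Deviations of same-numbered mice correlated across genes at r = 0.0075, -0.0039 and 0.035 for the 3 pairs of groups, so no pairing was read from the numbers. Of 273 counts and sums over all alternatives, 216 stayed within 1.5 times or 1 SD of the value given, and 406 of 441 ligand differences moved by less than the spread between mice. Of 586 differences of other genes, 479 kept their direction and side of the threshold, 92 lost a call, 9 gained one and 6 turned. Depth limits Ccl3, Ccl4, Ccl12 and Ccl24, with at most 28.6 reads in any mouse by estimates that run low for Ccl12 and Ccl24.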

Other observations

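Markers of other cell types were summed in each mouse, in the order saline, AP and polyI:C-pretreated AP with replicate 1 first. Mast cell markers (5 of 6 in the tables, Kit the most abundant by the mean over the 6 mice, as for each gene named so here) summed to 29.2 and 38.8, 24.1 and 28.3, and 26.8 and 26.8 TPM. T and NK cell markers (9 of 10, Klrd1) summed to 7.40 and 7.20, 4.20 and 8.40, and 6.07 and 8.17 TPM, low beside Ccl2 or Ccl6 in AP. Dendritic cell markers (6 of 6, Zbtb46) summed to 37.7 and 30.8, 27.2 and 31.8, and 23.9 and 21.5 TPM. None of these 3 lists set both AP mice above both saline mice in sum. Without Zbtb46, the dendritic sums were 4.995 and 4.75, 10.9 and 13.1, and 3.97 and 4.05 TPM, highest in both AP mice. Of the 3 tested genes of that list 1, Itgax, rose in AP by limma, beside 18.2% of all tested genes.

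Endothelial markers (5 of 5, Pecam1) summed to 79.1 and 54.9, 64.5 and 58.8, and 78.0 and 60.3 TPM. Duct markers (5 of 5, Krt19) summed to 83.1 and 88.1, 1053 and 1084, and 810 and 829 TPM, high in all caerulein-treated mice, and without Krt19 to 31.9 and 25.7, 37.4 and 42.7, and 42.9 and 60.6 TPM. Islet markers (6 of 6, Ins1) summed to 1620 and 1126, 1604 and 1136, and 835 and 1122 TPM. Mesothelial markers (4 of 4, Msln) summed to 41.5 and 42.1, 28.6 and 81.4, and 28.1 and 58.6 TPM, and adipocyte markers (4 of 4, Cidec) to 29.3 and 9.03, 32.3 and 10.7, and 8.78 and 13.1 TPM. B cell markers (5 of 5, Cd79b) summed to 11.9 and 14.4, 6.13 and 44.1, and 9.63 and 2.19 TPM, and lymph node markers (5 of 5, Glycam1) to 5.52 and 24.9, 4.94 and 36.8, and 7.01 and 5.30 TPM, where Glycam1 was listed at 0 in saline replicate 1, AP replicate 1 and polyI:C replicate 2, and without it to 5.52 and 10.1, 4.94 and 19.0, and 5.18 and 5.30 TPM. AP replicate 2 was the highest mouse for B cell, lymph node and mesothelial markers, while its summed ligand TPM (953) was close to that of AP replicate 1 (918).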
